A study of Homo sapiens with 15 samples.

Results

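The comparison set reverted T4 cells (T4R) against the nonmalignant S1 cells of the same HMT3522 human breast epithelial series. All 9 samples whose label calls the tumour stage a revert and all 3 S1 samples were taken, 12 of the 15 samples in the series. The other 3 samples are malignant T4 cells for which no agent is named, and they stand beside the comparison as a reference level. Every culture was grown in a three-dimensional laminin-rich matrix (3D lrECM), and total RNA was hybridised to Affymetrix U133A-type arrays. The question is which differences from S1 remain in T4 cells after reversion, and which are seen in neither S1 nor T4.

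Each T4R sample had its own agent, and the HMT3522 T4 line was the same throughout. GM6001 and an inhibitor set labelled MMPs and ADAMs act on metalloproteinases, and TNF protease inhibitor-2 on the TNF protease. PD98059 is an inhibitor of the MAPK pathway and LY294002 of PI3K, and one sample carried a dominant-negative Rap1. Tyrphostin AG 1478 is a kinase inhibitor of EGFR, mAb225 an antibody against EGFR, and AIIB2 an antibody against β1-integrin. S1 is labelled normal and no agent is named for it. The series text mentions a vehicle control without tying it to samples, and doses and times were not given in the sources used here. Each agent has 1 sample and each line is 1 cell lineage, so the spread within T4R holds differences between agents. No label ties replicate samples to separate cultures, and the p-values therefore reflect sample-to-sample spread that may be technical.

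The S1 line keeps epithelial polarity and stops dividing in laminin-rich gels, where it builds small spheres that resemble breast acini. T4 cells of the same lineage form disorganised, growing masses there. Blocking EGFR, β1-integrin, their downstream kinases or the proteases that release EGFR ligands makes T4 cells take up an acinus-like shape again, which is what reversion means in this model. The reverted cells are still of the T4 line, and the Rap1 sample also carried the dominant-negative form. Genotype was not measured here.

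The samples lie in 2 tables, one for each array type. GM6001, MMPs and ADAMs and LY294002 are in the first, together with all 3 T4 samples and S1 samples 1 and 2. The other 6 T4R samples are in the second, with S1 sample 3 as their only S1 sample. In a fit with array type as a block, leaving out S1 sample 3 thus leaves only first-table samples to set T4R minus S1. These 6 then add only to the estimate of spread. No T4 sample is in the second table, so comparing these 6 with T4 crosses array types. It rests on an offset between tables that S1 sample 3 sets for them. Deposited values are log2 expression levels. Sample medians ran from 7.33 to 7.40, and the lower quartile of all probe sets from 6.87 to 6.91. Between S1 samples 1 and 2, 16 of 9111 genes differed at least 2-fold, whereas S1 sample 3 differed from them in 553 and 648, across array types. How much of that distance is due to array type was not tested. The T4 reference was uneven too, although all of it is of the first array type. Its sample 3 lay at least 2-fold from sample 1 for 356 genes and from sample 2 for 426. For T4 sample 1 against sample 2 the count was 6. Within the second table the sample with dominant-negative Rap1 stood apart, with 321 to 438 genes at least 2-fold from the other 5. GM6001 differed from MMPs and ADAMs in 3 genes, and Tyrphostin AG 1478 from mAb225 in 0.

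Breast epithelial identity was checked first. KRT5 and KRT14, the keratin pair of basal epithelium, were high in every S1 and T4R sample, from 13.47 to 14.13 for KRT5 and from 13.77 to 14.52 for KRT14. KRT18, a keratin of simple epithelium, lay between 10.41 and 11.57, and CDH1, which encodes E-cadherin, between 9.34 and 11.92. KRT19 stayed between 6.52 and 6.74 in these samples and was below the lower quartile in all 15. Of 12 identity markers, 10 were measured well enough to test, and only KRT8 was called (0.71 ± 0.22 higher in T4R on the log2 scale, adjusted p = 0.0342), a call lost without S1 sample 3 (adjusted p = 0.53). Of 27 markers of leukocytes, red cells, endothelium, fibroblasts and fat, 24 were on the array and 10 of these lay below the lower quartile in at least 8 of the 15 samples. Their summed log2 level ran from 168.2 to 168.7 in S1 and from 169.2 to 175.4 in T4R. CD14, COL1A1 and COL3A1 were called higher in T4R, and none of the 3 was called without S1 sample 3. The endothelial markers CDH5 and CLDN5, the fat markers ADIPOQ and FABP4 and the fibroblast marker LUM were below the lower quartile in all 15 samples. Other fibroblast markers were not: DCN read 7.21 to 8.70 in S1 and 7.28 to 9.57 in T4R, and COL1A1 7.20 to 8.62 and 8.82 to 10.67. Of the leukocyte markers, CSF1R read 7.19 to 7.94 in S1 and 7.76 to 8.57 in T4R, ITGAM 6.84 to 6.92 and 6.80 to 8.02, and PTPRC, the pan-leukocyte marker, was below the lower quartile in 11 of 15 samples. The part of such cells in the results was not tested.

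T4R and S1 differed in 2116 of 9111 genes tested (23.2%), 1078 higher in T4R (11.8%) and 1038 lower (11.4%), in 1 limma fit over all 15 samples with the array type as a block and an adjusted p under 0.05. Most of these differences were small. Only 134 genes were higher by at least 2-fold (1.47%) and 163 lower (1.79%). The T4 samples against S1 gave 2452 genes in the same fit (26.9%), with 14.6% of genes higher and 12.3% lower; 373 were at least 2-fold higher (4.09%) and 272 at least 2-fold lower (2.99%). Both comparisons use the same S1 samples. The median difference between T4R and S1 over all genes was 0.00.

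The same contrast was run in each table alone, on samples that the other table does not share. The first table (3 T4R against 2 S1 samples) called 1821 genes (20.0%), 9.55% higher and 10.4% lower, and the second (6 against 1) called 1165 (12.8%). In the second the lone S1 sample is assumed to vary like T4R. Of the 870 genes higher in the first table, 193 were also called higher in the second, which is 22.2% of the first list and 35.5% of the 544 in the second, where 5.97% of all genes were called higher. Of the 951 lower genes, 225 were called lower in the second, 23.7% of the first list and 36.2% of the 621 in the second, against 6.82% of all genes. Across the 9111 genes the differences in the tables had a Pearson correlation of 0.483 and a Spearman correlation of 0.403, given as a description since genes are not independent replicates. The size of the contrast differed between tables for 375 genes (4.12%) and for 133 of the 2116 genes called (6.29%). Signs were opposite in the tables for 16 of the called genes (0.176% of those tested). The joint fit combines both tables and so favours genes of equal sign, and this count does not test agreement. Of the first table's own calls, 79.2% of the higher and 78.7% of the lower genes kept their sign in the second. Over all genes, 52.5% had a higher and 47.5% a lower sign there. Rules given in the processing section picked 155 genes, and the joint fit called 135 of them. Of these, 32 were not called in the first table alone. More were not called in the second alone, which has only 1 S1 sample.

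**Figure D1:**
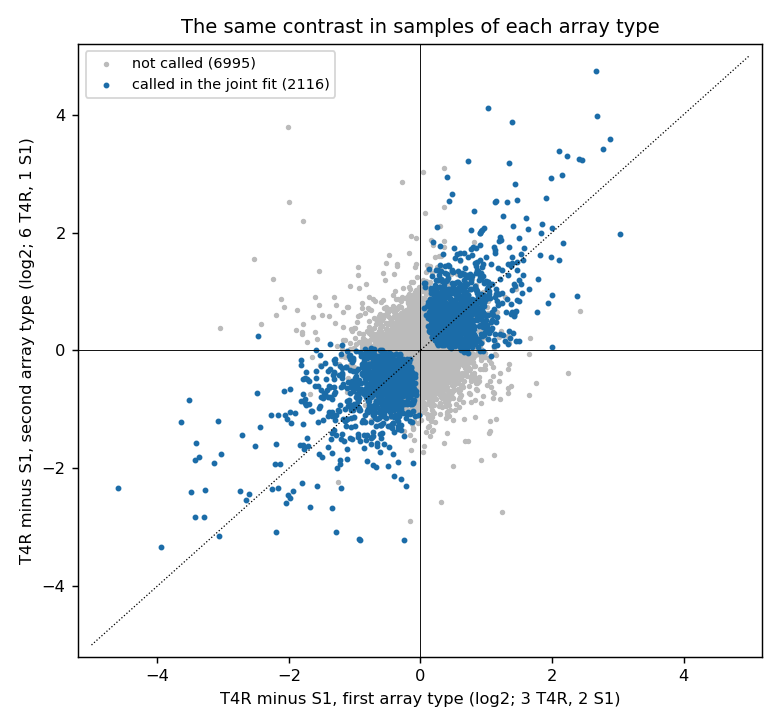
Each point is a gene, with its T4R minus S1 difference (log2) among samples of the first array type on the x axis and of the second on the y axis; the dotted line marks equal differences. The 2116 genes called in the joint fit (blue) lie mostly at the lower left and upper right, where both signs are the same, and 16 of them have opposite signs. The joint fit favours genes of equal sign, because it combines both array types.

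Antigen presentation by HLA class I was the gene list with the largest share of members called. HLA class I molecules carry peptides to the cell surface for inspection by T cells. The proteasome subunits PSMB8, PSMB9 and PSMB10 cut the peptides, TAP1 and TAP2 pump them into the endoplasmic reticulum, tapasin (TAPBP) and ERAP1 load and trim them, and B2M is the invariant light chain of the complex. Interferons and NF-κB are textbook inducers of these genes, through short elements in their promoters. Of the 15 genes listed, 13 were on the array and tested, and 13 were called higher in T4R, with a median difference of 1.07, where 11.8% of all genes tested were called higher. Without S1 sample 3, when only the first table sets this contrast, the count was 6, with a median of 0.77. It was 13 when T4 sample 3 and the dominant-negative Rap1 sample were both left out. In T4 against S1, 9 of the 13 were called higher and 0 lower, with a median of 1.15, where 14.6% of all genes were higher. T4R minus T4 had a median of 0.17, with 1 member called higher and 0 lower.

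Promoters are shown because these genes were all called higher in T4R than in S1, and some of them hold elements that can be read from the sequence. RefSeq promoters of build GRCh38.p14 were found for 12 of the 13 genes, and 250 bases before the transcription start were searched on both strands. The interferon-stimulated response element core, spelled GAAA, any 2 bases, GAAA, occurred in 6 of the 12 (B2M, HLA-F, PSMB10, TAP1, TAP2 and TAPBP), and in 2.63% of 7501 promoters of tested genes. An NF-κB site, spelled GGG, any 2 bases, TT, any base, CC, occurred in 5 (B2M, ERAP1, HLA-B, TAP1 and TAPBP), against 5.89%. The X2 box core TGACGC, part of the element bound with the NLRC5 and CIITA coactivators, occurred in 3 (HLA-B, HLA-C and TAP2), against 11.5%. In the 4 sequences printed, capitals mark these matches, on either strand, and matches of one motif can overlap each other. HLA-G, PSMB8 and PSMB9 had no match to any of these motifs. The 4 sequences printed all hold matches, so they do not stand for the whole list. A match is a string of letters and says nothing of binding in these cells. Whether the motifs bear on the T4R values was not tested.
B2M, chr15:44711267-44711516 (plus strand): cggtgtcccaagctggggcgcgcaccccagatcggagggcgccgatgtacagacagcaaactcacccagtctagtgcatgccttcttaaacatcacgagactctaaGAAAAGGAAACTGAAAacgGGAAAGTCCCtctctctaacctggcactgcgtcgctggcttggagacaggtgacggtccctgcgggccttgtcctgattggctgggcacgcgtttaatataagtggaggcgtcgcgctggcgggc
TAP1, chr6:32853705-32853954 (minus strand): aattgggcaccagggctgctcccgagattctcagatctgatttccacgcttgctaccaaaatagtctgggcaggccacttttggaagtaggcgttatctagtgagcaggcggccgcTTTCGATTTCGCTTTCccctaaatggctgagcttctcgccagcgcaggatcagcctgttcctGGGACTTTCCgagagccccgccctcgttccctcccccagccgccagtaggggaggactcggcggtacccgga
TAPBP, chr6:33314079-33314328 (minus strand): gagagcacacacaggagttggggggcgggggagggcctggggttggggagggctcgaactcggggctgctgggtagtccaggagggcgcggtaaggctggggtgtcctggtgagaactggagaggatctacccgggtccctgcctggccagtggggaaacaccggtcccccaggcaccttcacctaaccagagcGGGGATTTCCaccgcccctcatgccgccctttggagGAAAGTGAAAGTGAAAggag
HLA-B, chr6:31357180-31357429 (minus strand): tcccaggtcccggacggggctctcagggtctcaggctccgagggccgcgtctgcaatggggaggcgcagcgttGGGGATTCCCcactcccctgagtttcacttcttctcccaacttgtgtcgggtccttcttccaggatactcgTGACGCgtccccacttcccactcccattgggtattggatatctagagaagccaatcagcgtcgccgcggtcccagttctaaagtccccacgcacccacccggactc
B2M, TAP1 and TAPBP each hold both an interferon element and an NF-κB site in this window, and HLA-B holds an NF-κB site and an X2 core.

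HLA-B, a classical heavy chain, read 8.74, 8.85 and 8.39 in the S1 samples and from 10.63 to 12.24 in T4R, with a median of 11.53. The lowest T4R sample was LY294002 and the highest dominant-negative Rap1, and no T4R sample overlapped S1. The difference was 2.76 ± 0.25 (SE), or 6.78-fold (adjusted p = 6.51e-06). HLA-C, the second classical heavy chain here, ran from 10.36 (LY294002) to 11.83 (dominant-negative Rap1) in T4R against 8.77, 8.62 and 7.83 in S1, a difference of 2.64 ± 0.26. The T4 samples read 11.20, 11.46 and 10.79 for HLA-B, and T4R minus T4 was 0.19 with a 95% interval from -0.40 to 0.78. Probe sets for HLA genes may cross-hybridise among near-identical heavy chains, so their separate values are uncertain.

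Differences of the processing genes ran from 0.32 for TAP2 to 1.88 for PSMB9. PSMB9, an immunoproteasome subunit, read 7.09, 7.44 and 6.77 in S1 and 8.15 (LY294002) to 9.49 (TNF protease inhibitor-2) in T4R, 3.67-fold higher (adjusted p = 0.000169). HLA-F, a nonclassical heavy chain, was 3.19-fold higher, and the dominant-negative Rap1 sample (10.49) lay above the other 8, which ran from 8.85 to 9.63. B2M was higher in T4R than in S1 by 0.46 ± 0.10 (limma adjusted p = 0.00617), TAP1 by 0.76 ± 0.21 (0.017) and PSMB8 by 0.73 ± 0.23 (0.0371). All 3 calls were lost without S1 sample 3. TAPBPL, a tapasin-like protein outside the list, differed from both S1 and T4. It read 7.84, 8.41 and 7.34 in S1, 8.60, 8.86 and 8.27 in T4, and 9.17 to 10.22 in T4R, so that T4R exceeded T4 by 1.20 (adjusted p = 0.01) and S1 by 1.92 ± 0.24.

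Of these list members, 10 lie in the chromosomal stretch from HLA-F to TAPBP, where the same contrast was read for the genes between them. Those 10 members were all called higher, with a median difference of 1.28. Of the 85 other tested genes of the stretch, 12 were called higher (14.1%) and 0 lower, with a median of 0.09. Over all genes tested, 11.8% were higher and 11.4% lower.

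Interferon-stimulated genes, which encode antiviral proteins, were the next list in size of shift. Of 28 listed, 24 were tested. Of these, 10 were called higher and 0 lower (41.7% called, against 23.2% of all genes), with a median of 0.55. T4 against S1 had 8 of the 24 higher and 0 lower, with a median of 0.36. IFITM2, a membrane protein that blocks virus entry, read 10.33, 10.23 and 8.09 in S1 and 11.46 to 12.56 in T4R, a difference of 2.43 ± 0.37 (adjusted p = 0.000448). Its contrast was 1.40 in the first table and 3.87 in the second, a difference between tables that was itself called (adjusted p = 0.00302). GBP1, a guanylate-binding protein, was 2.78-fold higher and BST2, which tethers budding virus, 1.89-fold. OAS1, which makes the activator of RNase L, was higher by 1.48 ± 0.28, and the call was lost in the second table alone (adjusted p = 0.12). The list had 5 members called higher without S1 sample 3 and 16 without LY294002. USP18, which removes the ubiquitin-like ISG15 from proteins, was not on the list; it read 7.18 to 7.31 in S1 samples 1 and 2, 6.95 in sample 3, and 7.69 to 9.15 in T4R, above T4 by 1.22 (adjusted p = 0.00937).

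**Figure D2:**
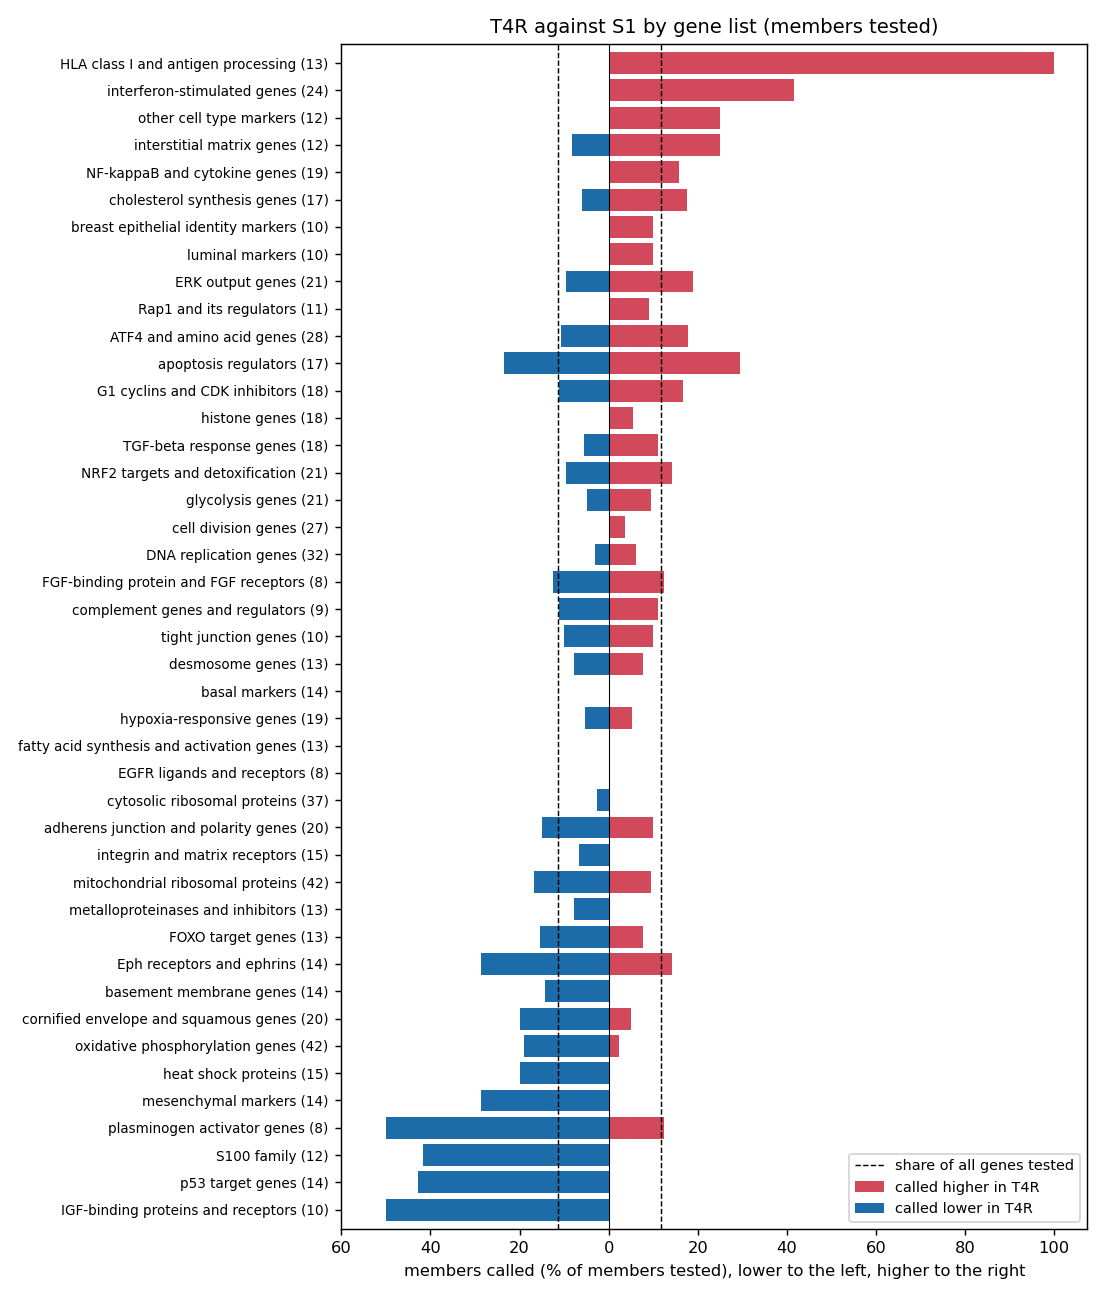
For each of 43 gene lists (members tested in brackets), bars give the share of members called higher in T4R than in S1 (right) and lower (left), in percent, from the joint limma fit; dashed lines mark the shares over all genes tested, 11.8% and 11.4%. Antigen presentation reaches 13 of 13 to the right, and IGF-binding proteins, p53 targets, the S100 family and plasminogen activator genes reach furthest to the left.

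A set of genes kept in T4R a difference from S1 that T4 also had, by the rule that both differed from S1 the same way and T4R was not called different from T4. T4R samples of the second table are compared with T4 only across array types. GPM6B, a proteolipid-like membrane glycoprotein, read 9.71, 9.86 and 9.90 in S1, 6.76, 6.82 and 6.64 in T4, and 6.64 to 6.84 in T4R. Its difference from S1 was -3.10 ± 0.07 (adjusted p = 2.34e-12), and T4R minus T4 had an interval from -0.19 to 0.13. MRFAP1L1 read 10.46, 10.76 and 10.13 in S1 and 6.56 to 6.83 in T4R, a difference of -3.69 ± 0.11. S100A14, a calcium-binding protein of epithelia, fell from 10.25, 10.23 and 9.69 to between 6.73 and 6.91, a difference of -3.18 ± 0.10. IGFBP3, which binds insulin-like growth factors outside the cell, read 11.18, 11.58 and 9.12 in S1 and 6.70 to 6.88 in T4R. T4R and S1 did not overlap for any of these genes, which were picked for large differences. Over all genes tested, every T4R sample lay below the S1 samples of its own table in 12.3%. The 9 agents lay close together, at low values. GPM6B, MRFAP1L1 and IGFBP3 were below the lower quartile of their own sample in all 9 T4R samples, and S100A14 in 7, so the differences may be understated there. For IGFBP3 the contrast was -4.60 in the first table and -2.34 in the second (adjusted p of the difference 5.14e-05).

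Other genes low in T4 remained low in T4R with more spread among agents. KRT10, a keratin of differentiating squamous cells, read 13.18, 13.44 and 12.79 in S1 and 9.40 to 11.54 in T4R, and AIIB2 alone was above 10.30. Its difference was -3.10 ± 0.37. ATP1B1, the β subunit of the sodium pump, was lower by 3.03 on the log2 scale (fold 0.122), with T4R samples from 7.04 to 8.26 against 9.66 to 11.61 in S1. SH3YL1 (fold 0.146) and NEBL, a nebulin-related actin-binding protein (fold 0.152), completed the 8. PPP1R3C, a glycogen-targeting subunit of protein phosphatase 1, was at fold 0.16 and likewise low in T4. ITGBL1, an integrin β-like secreted protein, was lower by 2.89 in T4R (fold 0.135) but had risen above T4 by 0.89 (adjusted p = 0.0256).

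COL5A2, a fibrillar collagen chain, was the highest-ranked of the genes that stayed high. It read 7.45, 7.41 and 6.72 in S1, 10.86, 10.87 and 9.75 in T4, and 9.98 to 10.94 in T4R, 9.32-fold above S1 (adjusted p = 3.32e-06). LGALS3BP, a secreted galectin-3 ligand, read 7.36, 7.45 and 6.87 in S1 and 9.57 to 10.54 in T4R, a difference of 2.78 ± 0.17. TNFSF10, the death ligand TRAIL, was 9.04-fold higher. Its dominant-negative Rap1 sample read 12.14 and the other 8 ran from 9.36 to 10.42, all above S1 (6.76 to 7.27). SCRN1 (5.65-fold), CCNA1, a cyclin A (6.03-fold), and BIK, a pro-apoptotic BCL2 relative (3.73-fold), showed the same pattern. For BIK the interval of T4R minus T4 ran from -1.05 to -0.09, below 0 before adjustment over all genes (adjusted p = 0.108).

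**Figure D3:**
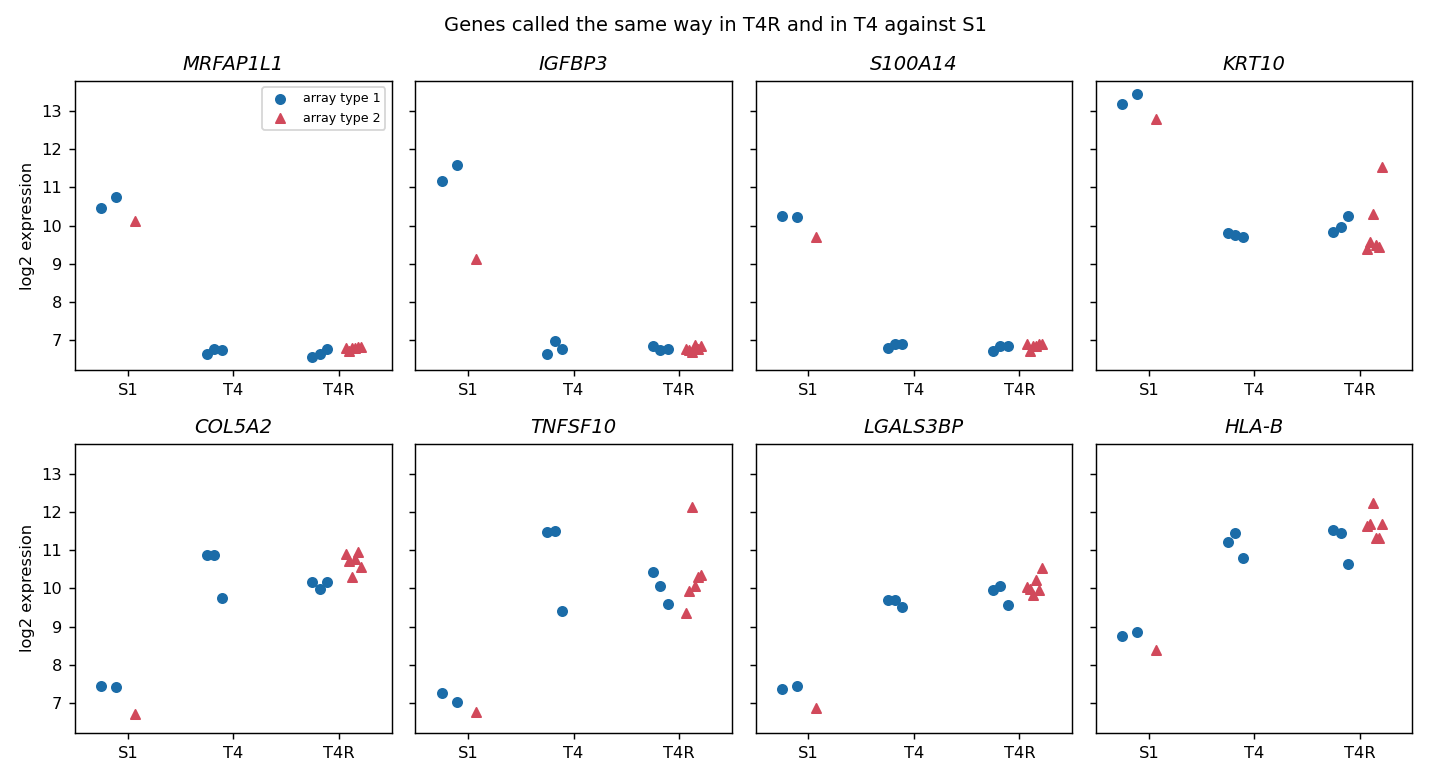
Log2 expression (y axis) of 8 genes that differed from S1 the same way in T4R and T4, in each S1, T4 and T4R sample; circles are samples of the first array type and triangles of the second. MRFAP1L1, IGFBP3 and S100A14 lie between 6.56 and 6.98 in all T4 and T4R samples, and COL5A2, TNFSF10, LGALS3BP and HLA-B lie above all S1 samples in both groups.

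The T4 and T4R comparisons above share S1 samples, so the link was also read without shared samples. In the first table, with its T4R samples left out, T4 was higher than S1 in 981 genes (10.8%) and lower in 925 (10.2%). Of the 981, 152 were called higher in the 6 T4R samples of the second table against S1 sample 3 (15.5% of the T4 list, 27.9% of the second table's 544, background 5.97%), and 39 were called lower. Of the 925, 193 were called lower (20.9%, and 31.1% of 621, background 6.82%), and 16 were called higher. The correlation of the differences across genes was 0.265 (Spearman 0.234).

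Many of the genes with the greatest T4 differences lay close to S1 in T4R. They were chosen by T4 minus S1, which uses the same S1 samples. FGFBP1, a carrier that releases fibroblast growth factors from matrix, read 11.93, 12.44 and 13.12 in T4 and 7.88 to 10.12 in T4R, where S1 read 7.29, 7.11 and 8.91. T4R minus S1 was 0.52 with an interval from -0.49 to 1.53. FN1, fibronectin, was between 6.97 and 7.21 in 8 T4R samples and 8.89 with dominant-negative Rap1, against 7.11, 7.17 and 7.54 in S1 and 10.56 to 11.56 in T4. Its T4R minus S1 interval ran from -0.82 to 0.67. DUSP6, a phosphatase induced by ERK, differed from S1 by 0.54 (-0.36 to 1.45) and AMIGO2, an adhesion protein, by 0.53 (-0.22 to 1.27). Both passed the threshold when arrays were weighted, and AMIGO2 also in the first table alone. IER3, an immediate early gene, differed by 0.76 ± 0.29 (adjusted p = 0.0756) and the chemokine CCL20 by 0.73 ± 0.28 (0.0784). Both missed the threshold; IER3 passed it without the AIIB2 sample, which was highest at 9.62, and CCL20 without LY294002 or without dominant-negative Rap1.

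SERPINA1, the elastase inhibitor α1-antitrypsin, moved only part of the way. It read 8.04, 7.84 and 7.78 in S1, 11.74, 11.77 and 10.63 in T4, and 9.16 to 11.41 in T4R. T4R was 4.55-fold above S1 (adjusted p = 0.000794) and below T4 by 1.42 on the log2 scale (adjusted p = 0.0309). Among genes low in T4, PPL, periplakin of the cornified envelope, read 6.92 to 8.96 in T4 but 10.62 to 11.54 in T4R, overlapping S1 at 11.59, 11.21 and 10.91. The interval of its T4R minus S1 difference was -0.71 to 0.71. TMT1A, a membrane methyltransferase, read 12.87, 12.86 and 12.77 in S1 and 10.85 to 12.40 in T4R, with no overlap, although the difference of -0.88 ± 0.48 did not pass (adjusted p = 0.215).

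**Figure D4:**
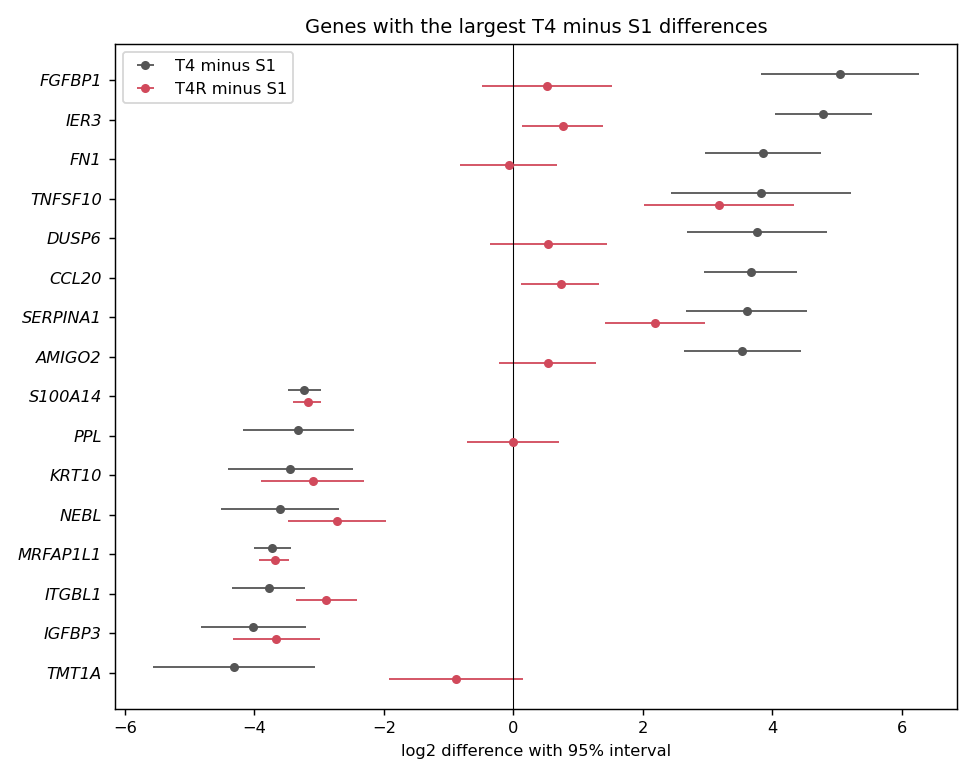
Differences from S1 (log2, x axis) with 95% intervals for T4 (grey) and T4R (red), for the 8 genes raised most and the 8 lowered most in T4. FGFBP1, FN1, DUSP6, AMIGO2, PPL and TMT1A have T4R intervals that include 0; those of TNFSF10, SERPINA1 and 6 of the lowered genes lie far from 0.

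A further group differed in T4R from both S1 and T4 in the same direction. Over all genes, 6.46% were called higher in T4R than in T4 and 8.44% lower (14.9% in all). All T4 samples are of the first array type, so deposited T4 values and T4R values of the second type are not directly comparable. T4R minus T4 within the first table alone is not given here. MSLN, mesothelin, a surface glycoprotein, read 8.09, 7.95 and 6.64 in S1, 9.88, 9.87 and 9.18 in T4, and 10.36 to 11.69 in T4R. It was 11.6-fold above S1 (3.53 ± 0.33, adjusted p = 1.06e-05) and above T4 by 1.39 (adjusted p = 0.0237). The contrast with S1 was 2.67 in the first table and 4.75 in the second, where the S1 sample was lowest (adjusted p of the difference 0.0121). C3, the central complement protein, read 9.04, 9.65 and 9.33 in S1, 10.07 to 10.86 in T4, and 11.65 (LY294002) to 13.09 (dominant-negative Rap1) in T4R. It was 8.22-fold above S1 and exceeded T4 by 1.77 (adjusted p = 0.000531). MATN2, matrilin-2 of the extracellular matrix, was near its S1 level in T4 (7.16 to 7.97, against 7.63, 7.63 and 6.89) and 9.50 to 10.64 in T4R, 6.38-fold above S1. PHYH, a peroxisomal enzyme that breaks down phytanic acid, was 2.85-fold above S1, with T4 at 9.05 to 9.53 and T4R at 10.34 to 11.10. SELENOP, a selenium carrier, was 2.29-fold higher with T4R from 7.54 to 9.75 and S1 from 6.87 to 8.45, overlapping ranges, and its call was lost under 8 alternatives. CADPS2 was 3.43-fold higher, with higher values in GM6001 (9.43) and MMPs and ADAMs (9.32) than in the 6 samples of the second table (7.57 to 8.42).

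Other genes were lower in T4R than in both S1 and T4. SERPINE2, an inhibitor of plasminogen activators and thrombin, ran from 7.20 to 7.46 in all 9 T4R samples, 9.23 to 9.68 in T4, and 8.14, 8.32 and 10.57 in S1. The T4R minus S1 contrast was -0.94 in the first table and -3.21 in the second (adjusted p of the difference 5.14e-05), and the joint value was -1.88 ± 0.32. PLAT, tissue plasminogen activator, read 8.93, 9.45 and 9.53 in S1, 9.27 to 9.70 in T4 and 7.67 to 8.78 in T4R, at fold 0.398 of S1. OSBPL10, an oxysterol-binding protein, ran from 8.27 to 8.81 in T4R against 9.63 to 10.40 in S1 and 9.72 to 10.23 in T4. Its difference from S1 was -1.51 ± 0.15 (adjusted p = 1.69e-05). CHST2, a sulphotransferase, was at fold 0.165 of S1, with the T4 samples spread from 8.09 to 10.64. EMP3, a membrane protein, fell to fold 0.221, but its dominant-negative Rap1 value of 10.31 equalled S1 sample 3 and the call was lost in the second table alone (adjusted p = 0.289). STC2, a secreted stanniocalcin, was at fold 0.256, PRSS3, a trypsinogen, at 0.429, and STEAP3, a ferrireductase, at 0.426. STEAP3 was not called without S1 sample 3 (adjusted p = 0.188).

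**Figure D5:**
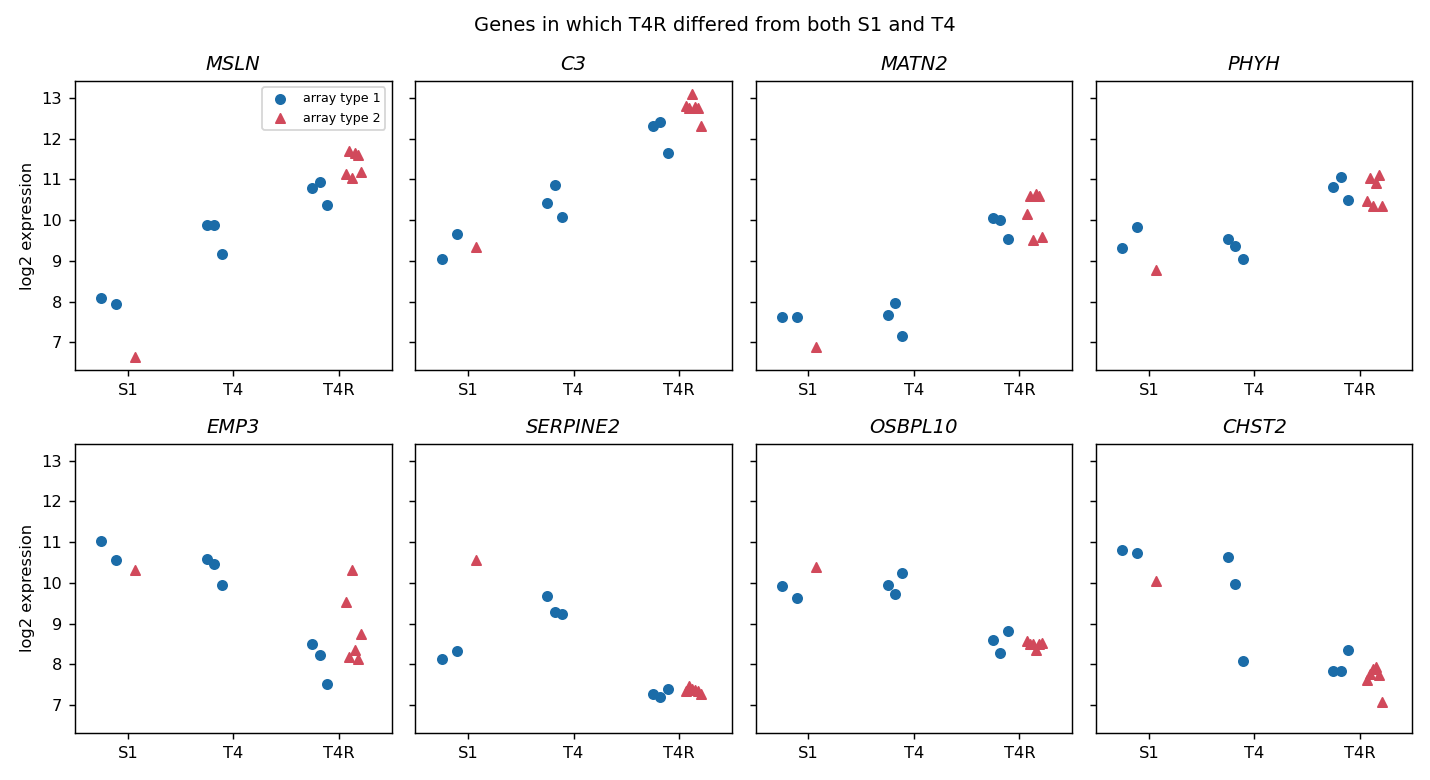
Log2 expression (y axis) of 8 genes in which T4R differed from both S1 and T4, by sample; circles are the first array type and triangles the second. MSLN, C3, MATN2 and PHYH are highest in T4R, and SERPINE2, OSBPL10 and CHST2 are lowest there in nearly every sample, while EMP3 overlaps S1 in the dominant-negative Rap1 sample.

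INHBA, the activin A subunit, crossed S1. It read 8.07, 8.28 and 7.29 in S1, 9.79, 9.39 and 9.68 in T4, and 6.84 to 7.09 in T4R, so T4R was below S1 by 0.82 on the log2 scale (adjusted p = 0.00135) and below T4 by 2.49 (7.02e-07). COL4A2, a basement membrane collagen chain, did the same, with T4R at 7.26 to 7.74 against 8.13, 8.06 and 9.05 in S1 and 8.71 to 9.39 in T4. Its T4R minus S1 call was lost in the first table alone (limma adjusted p = 0.0559). For INHBA, 2 of the 9 T4R samples lay below their lower quartile. IGFBP6 was at fold 0.743 of S1 and below T4 by 1.67, though 7 of the 9 T4R samples lay below their lower quartile and the call was lost under 8 alternatives.

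Signals that the agents act on were read in their own lists. Of 21 tested genes that ERK signalling induces, 4 were higher in T4R than in S1 and 2 lower (28.6% called, against 23.2% of all genes), with a median of 0.21, where T4 had 14 higher and 1 lower and a median of 1.32. CCND1, cyclin D1, stayed up (1.22 ± 0.23, adjusted p = 0.00172; 7.44, 7.65 and 8.42 in S1, 8.85 to 9.88 in T4R). EMP1 stayed up by 1.16 ± 0.19, and EPHA4, an ephrin receptor, stayed down by 2.27 (9.06, 9.15 and 9.80 in S1 against 6.99 to 7.35 in T4R, adjusted p = 1.47e-08). SPRY1, an inhibitor of receptor kinase signalling, was higher by 0.92 ± 0.19 and SPRY2 of the same family lower by 0.92 ± 0.20. In the second table alone CCND1 (adjusted p = 0.116), SPRY1 (0.301) and SPRY2 (0.12) were not called. In the EGFR list 0 of 8 tested members were called in the limma fit, against 23.2% of all genes: the ligands TGFA, HBEGF and EREG, the receptors EGFR and ERBB2, the sheddases ADAM10 and ADAM17 and the inhibitor LRIG1. At an unadjusted p under 0.05 there were 2. With 1 sample left out or under other settings, 0 to 2 were called higher and 0 to 1 lower. EGFR itself ran from 12.17 to 13.46 in T4R and was 11.68, 11.23 and 12.59 in S1; its difference of 0.86 ± 0.33 missed the threshold (adjusted p = 0.0808) and passed under 6 alternatives. ITGB1, the β1-integrin targeted by AIIB2, differed by 0.04 with an interval from -0.15 to 0.23. Of 15 integrins and matrix receptors (6.67% called), CD44, a hyaluronan receptor, was called, at fold 0.694. It was not called without S1 sample 1 (limma adjusted p = 0.0895), S1 sample 2, GM6001 or MMPs and ADAMs. The call was also lost with the probe set of largest interquartile range (0.402) and with the mean of all probe sets (0.139).

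RAP1B, a small GTPase of cell adhesion, was 1.41-fold higher (adjusted p = 0.00845), a call lost without S1 sample 3 (0.157). RAP1A was not called (0.24 ± 0.18). It read 10.91 in the dominant-negative Rap1 sample and 10.06 to 10.21 in the other T4R samples of that table. Whether its probe set detects the introduced construct is not given in the sources used here.

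Death and survival genes moved both ways. Of 17 apoptosis regulators, 5 were higher and 4 lower (52.9% called, against 23.2%). Besides TNFSF10 and BIK, PMAIP1, the BH3-only protein NOXA, was 2.91-fold higher and CFLAR, the FLIP inhibitor of caspase 8, 2.57-fold higher (9.85, 9.63 and 8.99 in S1, 10.36 to 11.06 in T4R). The TRAIL receptor TNFRSF10B was at fold 0.439 (adjusted p = 0.00117), FAS at 0.542 and the survival protein BCL2L1 at 0.584. FAS was not called with the probe set of largest interquartile range (limma adjusted p = 0.064). TNFRSF10B read 9.20, 9.81 and 10.62 in S1 and 8.37 to 9.42 in T4R, so it overlapped in deposited values but not within either array type. These receptors are also on the list of p53 targets, of which 6 of 14 were lower and 0 higher (42.9% called), with a median of -0.36. PMAIP1, called higher, is a p53 target that was not on that list, so the count of 0 holds for the listed genes only. BAX, which opens the mitochondrial membrane, was at fold 0.638 and DDB2, of DNA repair, at 0.575; both calls were lost without S1 sample 3, when 3 list members were called lower and 1 higher.

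In the IGF list 5 of 10 tested members were lower, 0 higher and 5 not called, where 11.4% of all genes were lower. Besides IGFBP3 and IGFBP6, IGF1R, the IGF receptor, was at fold 0.542 and its adaptor IRS1 at 0.656. Without S1 sample 3 only 1 of the 10 was called, and 3 without S1 sample 1, GM6001, MMPs and ADAMs or LY294002. In the S100 family 5 of 12 were lower, 0 higher and 7 not called, against the same 11.4%. Only 1 was called lower without S1 sample 1 or S1 sample 2, 2 without MMPs and ADAMs and 3 without LY294002. S100A4, a metastasis-linked member, read 10.71, 10.73 and 9.02 in S1 and 8.43 to 9.46 in T4R (fold 0.446, adjusted p = 0.0114), and its call was lost without S1 sample 1 or 2. Of 8 plasminogen activator genes, 4 were lower and 1 higher, and 2 were lower without any one of the S1 samples, MMPs and ADAMs or LY294002. The one that rose, SERPINB1, is an inhibitor of neutrophil proteases, and its call was lost without S1 sample 3 (adjusted p = 0.404).

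Mesenchymal markers gave 4 lower and 0 higher of 14, 28.6% called against 23.2% of all genes. The lower count was 2 without S1 sample 1 or S1 sample 2, 7 in the first table alone and 0 in the second. AXL, a receptor kinase, read 10.06, 9.97 and 10.02 in S1 and 7.05 to 8.99 in T4R, with dominant-negative Rap1 highest (fold 0.172, adjusted p = 0.000508). TWIST1, a transcription factor of epithelial-mesenchymal transition, was at fold 0.491. VIM, vimentin, was at 0.534 (adjusted p = 0.026), with T4R at 11.79 to 13.26 and S1 at 13.17 to 13.73, and its call was lost without any one of the S1 samples, GM6001 or MMPs and ADAMs. Interstitial matrix genes had 3 higher and 1 lower of 12 (33.3% called), and 1 higher without S1 sample 3. COL1A1, a fibroblast collagen, was 2.76-fold higher with a contrast of 0.41 in the first table and 2.94 in the second (adjusted p of the difference 0.0234), and was not called without S1 sample 3 (0.487). It is also one of the other-cell-type markers described above, whose part in the collagen values was not tested.

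NF-κB and cytokine genes gave 3 higher and 0 lower of 19 (15.8%, against 23.2% of all genes), 7 higher without LY294002 (36.8%) and 5 without dominant-negative Rap1. IL1A, an inflammatory cytokine, read 8.07, 8.26 and 8.07 in S1, 10.83 to 12.04 in T4, and 9.55 to 10.60 in T4R, 4.09-fold above S1 and below T4 by 1.32 (adjusted p = 0.00619). TNFAIP3, the A20 inhibitor of NF-κB, was 4.02-fold higher. NFKBIA, its cytoplasmic inhibitor, was 1.88-fold higher, lost without S1 sample 3 (adjusted p = 0.254).

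Respiratory chain genes had 8 lower and 1 higher of 42 (21.4% called, close to the 23.2% of all genes), where T4 had 22 lower. CYC1, cytochrome c1 of complex III, read 11.45, 11.42 and 11.09 in S1 and 9.27 to 9.82 in T4R (-1.73 ± 0.11, adjusted p = 3.58e-07), and UQCRC2 of the same complex was at fold 0.421. Mitochondrial ribosomal proteins had 7 lower and 4 higher of 42 (26.2% called). Of 37 cytosolic ones 1 was lower, RPL8 (2.7%). That count was 6 without S1 sample 3, 3 without T4 sample 3 and 24 with array weights, and the list median was -0.25 in the first table and 0.24 in the second. In glycolysis, HK1, the first kinase, was at fold 0.488, SLC2A3, a glucose transporter, 1.92-fold higher and PKM, the last kinase, 1.64-fold higher, of 21 (14.3% called). SLC2A3 was not called without S1 sample 3, nor PKM without S1 sample 1 or 2. PKM was also not called with the probe set of largest interquartile range (limma adjusted p = 0.702) or with the mean of all probe sets (0.0673). PDK4, which shuts pyruvate out of mitochondria, was at fold 0.305 (8.90, 9.20 and 8.66 in S1 against 6.92 to 7.34 in T4R).

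Cell division genes had 1 member called, the centromere histone CENPA, of 27 (3.7%, against 23.2% of all genes), with a median of 0.42. The higher count was 10 without dominant-negative Rap1, 14 without that sample and T4 sample 3, 18 with array weights and 3 in the first table alone. CENPA was not called without S1 sample 2 or 3, GM6001 or MMPs and ADAMs. MKI67, a proliferation marker, differed by 0.13 (-0.73 to 0.99). It read 7.49 with dominant-negative Rap1 and 9.13 to 9.62 in the other 5 samples of that table, and 8.16 to 8.38 in the first. DNA replication genes had 2 higher and 1 lower of 32 (9.38%), 5 higher without S1 sample 3, 3 lower without T4 sample 3 and 21 higher with array weights. Their median was 0.64 in the first table and -0.70 in the second, opposite signs. In the limma fit 0 of 14 basal markers and 0 of 13 fatty acid synthesis genes were called, with 3 in each list at an unadjusted p under 0.05.

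Among other lists, Eph receptors and ephrins had 2 higher and 4 lower of 14 (42.9% called, against 23.2% of all genes). EPHA3 rose 3.13-fold from the floor of the array (6.74, 6.59 and 6.47 in S1, all below the lower quartile) to 7.76 to 8.52 in T4R. The heat shock proteins HSPA2 (fold 0.422), HSPH1 (0.399) and HSPD1 (0.663) were lower, of 15 (20.0% called, near the share of all genes), HSPH1 not without S1 sample 3 (adjusted p = 0.0638), when 3 others were higher. The cornified list had 4 lower and 1 higher of 20, 5 called in all, near the 23.2% of all genes. ALOX15B, a lipoxygenase of squamous epithelium, was at fold 0.162 with contrasts of -3.15 and -1.91 in the tables (adjusted p of the difference 0.00125). In the adherens junction and polarity list 2 were higher and 3 lower of 20, also near that share, and 0 or 1 lower without any one of the S1 samples, GM6001, MMPs and ADAMs or Tyrphostin AG 1478. The polarity GTPases RAC1 (1.68-fold) and CDC42 (1.62-fold) were higher, and the polarity scaffold SCRIB was at fold 0.472, a call lost without S1 sample 3 (adjusted p = 0.368).

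Runs of neighbouring genes were also compared. Runs of 15 tested genes, in RefSeq order on GRCh38.p14, were ranked by their median contrast in the first table and then read in the second, whose samples are not shared. Over all runs the medians in the first table lay between -0.26 and 0.27 from the 5th to the 95th percentile. The lowest run, PLEC to SLC39A4, had a median of -0.68 in the first table and -1.02 in the second, where 14 of its 15 genes were called lower. It includes CYC1 and OPLAH, an oxoprolinase (-1.35 ± 0.11). PIK3R1 to ANKRA2 had medians of -0.61 and -0.69, and GTPBP6 to SHROOM2 of -0.58 and -0.46. The run includes CD99, a surface glycoprotein, at -1.40 ± 0.21. Among high runs, SHOX2 to GOLIM4 had 0.62 and 0.41, TWSG1 to SEH1L 0.61 and 0.23, and CEBPA to LSR 0.53 and 0.51. All 6 runs taken in each direction kept their sign in the second table, where the spread of all run medians was not computed. In the joint fit the T4 minus S1 median had the same sign in each of these runs, and was -0.62 for PLEC to SLC39A4. Both contrasts share the S1 samples. DNA copy number was not measured here.

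The agents differed in how far their samples stood from S1, without a test, since each has 1 sample. Against the S1 mean of the first table, 449 genes were at least 2-fold apart with LY294002, 471 with GM6001 and 478 with MMPs and ADAMs. In the other table, against 1 S1 sample, the counts were 562 for TNF protease inhibitor-2, 570 for Tyrphostin AG 1478, 611 for mAb225, 628 for PD98059, 690 for AIIB2 and 956 for dominant-negative Rap1 (10.5% of genes). Counts of the tables are not comparable, because the S1 samples differ. Across all 9 agents, 896 genes were called higher with every T4R sample above the S1 samples of its own table (9.83%), and 860 were called lower with every sample below (9.44%).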

How the data were processed

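Total RNA of 15 samples was measured on Affymetrix U133A-type arrays, Trizol-extracted and biotin-labelled per the labels' protocols. The authors deposited log2 expression values, a scale read from their range. For background correction, normalization and software, the steps were not given in the sources used here. Detection calls were not used. Precision is limited by the number of arrays.

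Of 22215 probe sets, 19707 had 1 gene, 614 several, 1706 none, and 188 differed between the platform annotations. Symbols of 19689 probe sets were taken from RefSeq (GRCh38.p14). For each of 12149 genes the probe set of highest mean was used, and the lowest 25% were left out, leaving 9111. LAMA3, TP63 and AREG had no single-gene probe set and are not analysed here. limma 3.58.1 in R 4.3.3 (lmFit, eBayes, 2-sided, Benjamini-Hochberg over all genes, threshold 0.05) fitted S1, T4 and T4R in all 15 samples, with the table as a fixed block, and was tested on simulated data. Differences are from the fit with standard errors; sample values are as deposited.

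The 155 named genes were picked by rule, and not all of them appear in the text. They were the 10 largest calls each way with one sign in both tables, 8 each way shared with T4 and 8 apart from both S1 and T4. Added to these were the 8 largest in T4, up to 4 per list and 17 fixed genes. ST6GAL1 and TMF1, with probe sets called in opposite directions, were left out. Members, lists and rules were chosen with earlier results of these data known. Other list members, the genes of chromosomal runs and the marker genes were named after their values were seen. Alternatives covered probe set choice, filter, normalization, block, weights, prior, each table alone and each sample left out.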

Additional observations from a re-analysis of the deposited data

Results flagged for a closer look

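In 23 of 155 named genes, 1 of the 9 T4R samples stood further from the rest than Dixon's 95% critical value allows, after removal of the offset between tables. Chance flags about 1 in 20 groups of like replicates. The 9 samples had different agents, and many of the genes were picked from these same values. That rate is therefore no reference for the count of 23. The sample with dominant-negative Rap1 was high in 9 genes and low in 5, AIIB2 was high in 8, and LY294002 was low in 1. The values given are log2 levels without the table offset, which differ from the deposited ones.

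Dominant-negative Rap1 was high for the death ligand TNFSF10 (11.99), the death receptor FAS (9.50), FN1 (8.61), HLA-F (10.24), the vasodilator peptide ADM (8.09), the desmosomal cadherin DSG2 (11.37), the receptor kinase AXL (8.86), RAP1A (11.31) and KRT18 (11.19). It was low for CCND2 (12.08), PKM (11.46), the serine-glycine enzyme SHMT2 (10.10), the mitochondrial chaperone HSPD1 (11.94) and MKI67 (6.64).

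AIIB2 was high for IER3 (9.23), KRT10 (11.71), PRSS3 (8.41), MRPS30 (9.28), the alanyl-tRNA synthetase AARS1 (9.98), the reductase AKR1B10 (7.80), the desmosomal cadherin DSC1 (9.64) and RHOA (12.58). LY294002 was low for CD14 (7.35).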

How the results depend on the processing

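Of 4317 values of the 155 named genes under alternative settings, 290 lost the call, 17 gained it and 0 reversed. The other 4010 kept the call and its direction or were uncalled both ways. A change of sign in a gene uncalled both ways was not counted as a reversal. Of the 135 named genes called, 59 kept the call under every alternative run. The count of genes called (2116) was 1165 in the second table alone and 3854 with array weights; the higher count (1078) was 544 and 2007, and the lower count (1038) was 621 and 1847. The second table has fewer samples; the cause of the rise with array weights was not tested. Leaving out each sample in turn gave 1584 to 2412 calls, 774 to 1234 higher and 810 to 1185 lower, 123 to 145 higher by at least 2-fold and 152 to 216 lower. Leaving out S1 sample 3 also removes the T4R samples of its table from the contrast, so it is more than the loss of 1 sample. Genes called in both tables the same way ran from 322 to 441. Leaving out T4 sample 3 and dominant-negative Rap1 together was chosen after seeing the data. No paired analysis was possible because the T4R samples carry no replicate numbers in the labels. Depth is not defined for arrays; genes near the lower quartile carry differences that may be understated.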
